A study of Mus musculus with 8 samples.

Results

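The 49 genes described here encode the machinery that copies DNA: the proteins that mark and open replication origins, the polymerases, the sliding clamp and its loader, the enzymes that supply nucleotides, and the factors that join new strands and pack them into chromatin. They were listed by symbol, with earlier results of these data known, and each was followed through the probe set annotated to it alone, taking the brightest by mean log2 intensity where a gene had several. All 49 had such a probe set, among 19938 genes in all. Of these, 47 members and 13205 genes passed a filter that required a mean log2 intensity of more than 7.14, which 40% of all probe sets do not exceed. The 2 members below it were Orc1 and Gmnn, with means of 6.73 and 6.27, and their levels are given without a test.

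The cells were bone marrow stromal cells, which stick to the dish and can become bone, cartilage or fat cells, taken from the femurs and tibiae of C57BL/6 mice aged 6 to 8 weeks and used after 1 passage. They were seeded on Skelite, a calcium phosphate scaffold, and kept either in osteoinductive medium, which drives them to mature into bone cells, or in growth medium. Each medium was measured in microgravity in flight, on a 1g centrifuge in flight, in ground incubation units and in laboratory culture dishes. Both flight conditions ran in automated hardware inside the KUBIK incubator, whereas the ground units were operated by hand. "Flight" therefore means 4 arrays (microgravity and centrifuge, each in both media) and "ground-based" the 4 arrays of ground units and dishes, with 1 array for each medium and condition. A label of the centrifuge samples gives their gravity as microgravity, and 1 sentence on the osteoinductive centrifuge sample places it in growth medium. The titles, which say otherwise, were followed, and an error in them would alter what these arrays are compared for. How many mice were pooled is not stated, and no label assigns the arrays to separate cultures or animals. The p-values therefore reflect just the spread among these 8 arrays, and that spread may be technical.

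Replication starts with licensing: the origin recognition complex (Orc proteins), Cdc6 and Cdt1 load the ring-shaped Mcm helicase onto DNA. The kinase Cdc7, with its activating subunit Dbf4, then switches the helicase on together with Cdc45 and the GINS complex, after which polymerases, the Pcna clamp and its loader copy both strands. Many of these genes are transcribed in late G1 and S phase under E2F factors, so their RNA is commonly used as a sign of cycling cells, and stromal progenitors generally leave the cycle as they mature towards bone. RNA from a whole culture does not separate fewer cells in S phase from less RNA per cell, and the 2 cannot be told apart here.

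The median intensity was 191.3 to 196.4 on the flight arrays and 180.9 to 183.6 on the ground-based arrays. The spread was 0.119 on the log2 scale over the 8 arrays, and values were used as deposited. Bright probe sets went the other way: the median log2 intensity of the 1000 brightest was 12.06 to 12.25 on flight arrays. On ground-based arrays it was 12.27 to 12.32, so the shift between the sides depended on intensity. The number of arrays limits the precision. Of 15 markers of stromal cells all passed the filter, with a summed intensity of 39258 to 49601 on flight and 48183 to 54407 on ground-based arrays. Markers of other cell types moved together with flight. Of 12 neuronal markers 11 were higher on every flight array than on every ground-based one, with sums of 10978 to 16419 on flight and 2918 to 4010 on ground-based arrays. The same held for 10 of 12 skeletal muscle markers (7204 to 9576 on flight and 2738 to 2936 on ground-based arrays) and for 10 of 10 endothelial markers (2023 to 3655 on flight and 1468 to 1554 on ground-based arrays). It also held for 7 of 10 lung epithelial markers (2334 to 13341 on flight and 1366 to 1530 on ground-based arrays), whereas none of 12 macrophage markers separated the arrays in either direction (3518 to 4809 on flight and 3737 to 4447 on ground-based arrays). The share of all genes that lay higher on every flight array was not counted. In flight minus ground-based, limma called 9 of 9 tested neuronal and 10 of 11 muscle markers higher (adjusted p under 0.05). It called 8 of 8 endothelial and 4 of 8 lung markers higher, where 12.7% of all tested genes rose. Of 8 tested macrophage markers 2 fell and 0 rose. Eng is in both the endothelial and the stromal list. The part of these other cell types in the results for replication genes was not tested.

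Most replication genes were lower in flight. Of the 47 tested members 36 fell and 0 rose in flight minus ground-based (limma, adjusted p under 0.05 over all 13205 genes), where 25.7% of all tested genes fell and 12.7% rose. The members' median log2 difference was -0.40, a 1.32-fold lower intensity, against a median of -0.09 over all tested genes. Brighter genes fell more often: with a filter at the 60th percentile 2987 of 8891 genes fell and 697 rose, with a median of -0.17. Every one of the 47 tested members had a negative difference, as did 62.9% of all tested genes, but Cdc7, Chaf1b, Gins3 and Slbp, none of which passed, were above 0 once each array was centred on its 1000 brightest probe sets. The differences ran from -1.42 for Dbf4 to -0.02 for Cdc7. In 26 of the 47 all 4 flight arrays lay below all 4 ground-based arrays, which 16.2% of all tested genes also showed. Orc1 and Gmnn, the dim members, also had no overlap between flight and ground-based arrays. In Orc1 the sides almost touched, at 6.7967 on the osteoinductive centrifuge array and 6.7988 on the osteoinductive laboratory array.

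**Figure D1:**
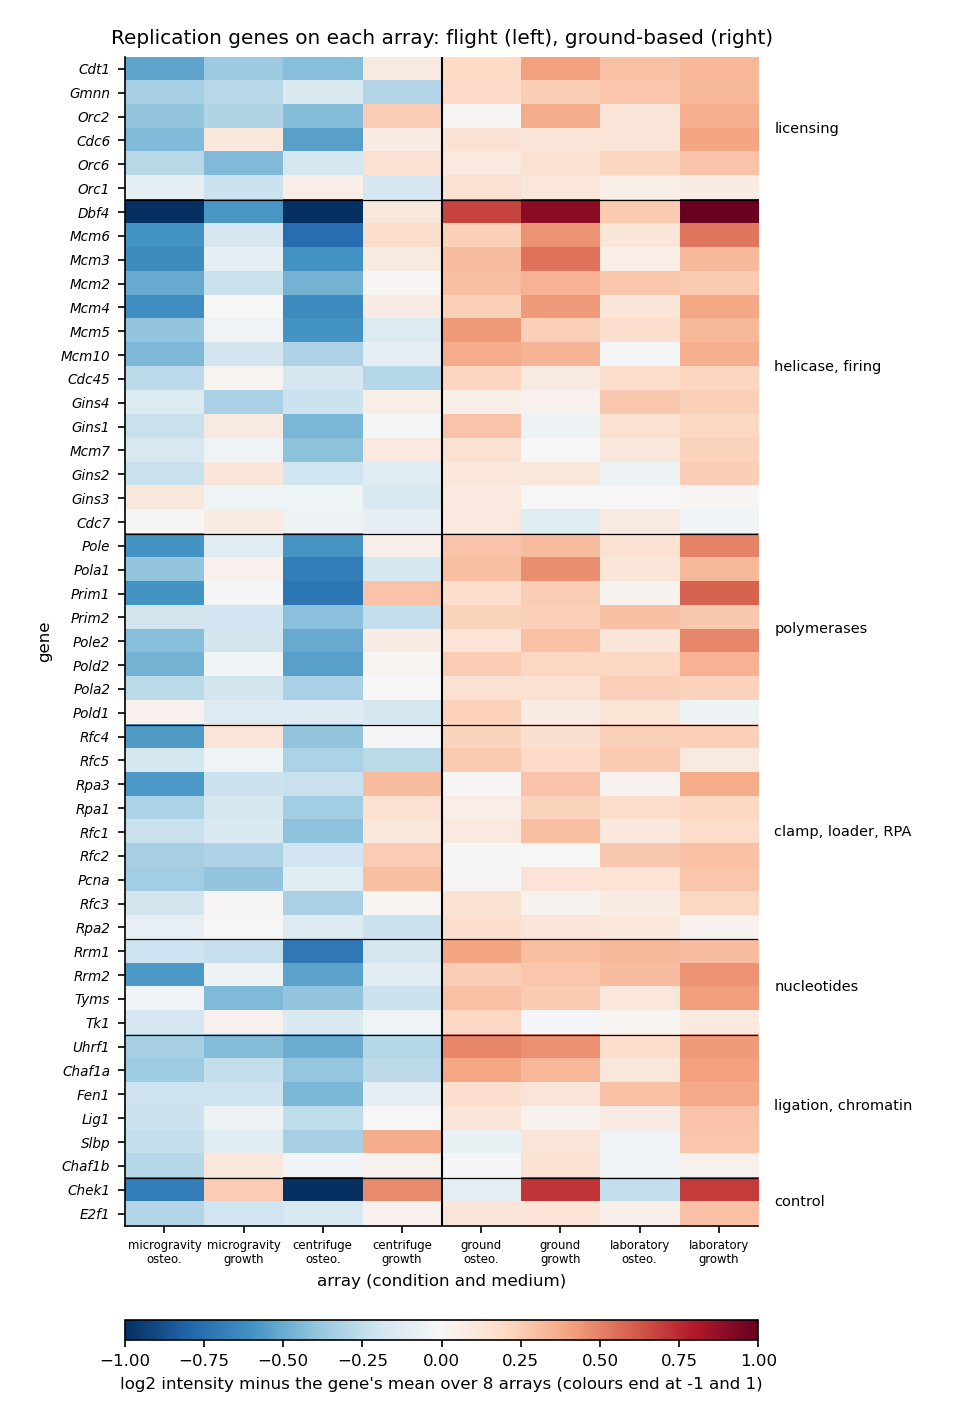
Heat map of the log2 intensity of the 49 replication genes (rows, ordered by role and by flight difference) on the 8 arrays (columns), each minus the gene's own mean over the 8 arrays; "osteo." is osteoinductive medium. Blue is below and red above a gene's mean: the flight arrays on the left are mostly blue, with the growth centrifuge array the palest of them, and the ground-based arrays on the right mostly red.

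The median over the 49 genes of the log2 intensity centred on each gene's mean was -0.32 and -0.13 in microgravity and -0.39 and 0.02 on the centrifuge, in osteoinductive and growth medium, against 0.18 and 0.21 in ground units and 0.13 and 0.29 in dishes. The growth centrifuge array was thus the flight array nearest to the ground-based ones. Without it 40 members fell, and without any other single array 29 to 36 did. Calls over all genes changed too: 4768 of 13205 genes fell without it and 2117 to 2706 without any other single array, against 3393 with all arrays. The gain to 40 members was thus not particular to the replication genes. Centring each array on its brightest probe sets, as above, moved the median difference of all genes by 0.15, to 0.07. On that scale the members' median was -0.25 and 23 members fell, while over all genes 1312 fell and 2991 rose, against 3393 and 1675 on the deposited scale. The members' direction was the same on both scales for their median, and 20 of the 36 calls held under every alternative that tested the gene. Those 20 were Cdt1, Mcm2 to Mcm6, Mcm10, Dbf4, Pola1, Pola2, Prim2, Pold2, Pole, Pole2, Rrm1, Rrm2, Tyms, Fen1, Chaf1a and Uhrf1. The other 16 lost the threshold under at least 1 alternative.

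Among the licensing genes, all 4 that were tested fell, with a median of -0.42, where 25.7% of all tested genes fell with a median of -0.09. Cdt1, which brings the Mcm ring to origins, had log2 intensities in osteoinductive and growth medium of 8.92 and 9.08 in microgravity and 9.01 and 9.53 on the centrifuge, against 9.64 and 9.85 in ground units and 9.73 and 9.77 in laboratory dishes. No flight array reached the ground-based range, and the difference was -0.61 (SE 0.10, adjusted p = 0.000734). Cdc6, the ATPase that works with Cdt1, fell by 0.40 (SE 0.10, adjusted p = 0.0104), again with no overlap between flight and ground-based arrays. The origin recognition subunits Orc2 and Orc6 fell by 0.44 and 0.38, but their growth centrifuge arrays lay within the ground-based range. Orc1, the ATPase subunit of the same complex, was dim and read 6.64 and 6.52 in microgravity and 6.80 and 6.57 on the centrifuge, against 6.88 and 6.85 in ground units and 6.80 and 6.81 in dishes (osteoinductive and growth medium). Gmnn encodes geminin, the inhibitor of Cdt1, and so acts against licensing. It read 5.94 and 5.99 in microgravity and 6.13 and 5.98 on the centrifuge, against 6.47 and 6.52 in ground units and 6.55 and 6.61 in laboratory dishes (osteoinductive and growth medium), with no overlap between flight and ground-based arrays.

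The helicase and its activators held both the largest and the smallest differences of the whole set. Of these 14 members 9 fell, with a median of -0.43, where 25.7% of all tested genes fell. Dbf4 had log2 intensities in osteoinductive and growth medium of 6.97 and 7.55 in microgravity and 6.93 and 8.25 on the centrifuge, against 8.81 and 9.04 in ground units and 8.39 and 9.12 in laboratory dishes. All 4 flight arrays were lower than all 4 ground-based arrays, and the osteoinductive flight arrays were the lowest. The fall was 2.67-fold (log2 difference -1.42, SE 0.15, adjusted p = 1.96e-05). Cdc7, the kinase that Dbf4 activates, read 7.25 and 7.32 in microgravity and 7.19 and 7.15 on the centrifuge, against 7.34 and 7.12 in ground units and 7.33 and 7.21 in laboratory dishes (osteoinductive and growth medium). Flight and ground-based arrays overlapped, although in osteoinductive medium both flight arrays lay below both ground-based ones. The difference was -0.02 (SE 0.08, adjusted p = 0.86). The activating subunit and the kinase thus held the ends of the range. Cdc7 was dim, with a mean log2 intensity of 7.24 against the filter's 7.14, and Dbf4 had a mean of 8.13.

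Mcm2 to Mcm7 encode the subunits of one hexameric ring, and 5 of the 6 fell, where 25.7% of all tested genes fell. Mcm6 read 8.59 and 9.03 in microgravity and 8.43 and 9.37 on the centrifuge, against 9.43 and 9.64 in ground units and 9.32 and 9.73 in laboratory dishes, in osteoinductive and growth medium. The osteoinductive flight arrays stood apart, while the growth centrifuge array lay just above the lowest ground-based array. Its difference was -0.68 (SE 0.11, adjusted p = 0.000445). Mcm3 read 7.92 and 8.46 in microgravity and 7.95 and 8.64 on the centrifuge, against 8.86 and 9.10 in ground units and 8.62 and 8.88 in laboratory dishes (osteoinductive and growth medium), with the same kind of small overlap at the growth centrifuge array, and fell by 0.62 (SE 0.10, adjusted p = 0.000675). Mcm2, Mcm4 and Mcm5 had no overlap between flight and ground-based arrays and fell by 0.58 to 0.59. Mcm7 read 9.42 and 9.54 in microgravity and 9.17 and 9.68 on the centrifuge, against 9.73 and 9.57 in ground units and 9.69 and 9.81 in laboratory dishes (osteoinductive and growth medium), with a difference of -0.25 (SE 0.10, adjusted p = 0.0675). It passed the threshold only without the growth centrifuge array or without the growth ground array (adjusted p = 0.0223 and 0.0309).

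Mcm10, which helps to activate the loaded helicase, fell by 0.53 (SE 0.09, adjusted p = 0.00112), and Cdc45, a part of the active helicase, by 0.34 (SE 0.09, adjusted p = 0.00958). Of the 4 GINS subunits, which hold Cdc45 to the Mcm ring, 1 fell: Gins4, by 0.31 (adjusted p = 0.0288). Over all tested genes 25.7% fell. Gins3 read 7.49 and 7.33 in microgravity and 7.33 and 7.22 on the centrifuge, against 7.47 and 7.38 in ground units and 7.38 and 7.38 in laboratory dishes (osteoinductive and growth medium), a difference of -0.06 (SE 0.08, adjusted p = 0.568). Its 8 arrays spanned a narrow range, and both flight arrays lay below both ground-based arrays in growth medium but not in osteoinductive medium. Gins1 and Gins2 had differences of -0.30 and -0.21 (adjusted p = 0.0564 and 0.0654).

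Promoter sequence from RefSeq (GRCm38.p6) was set beside these values, since E2F factors are known to bind upstream of many replication genes. The table holds a window of 300 bases, from 250 before to 50 after the gene's start, for 41 of the 49 members. The E2F words TTTCCCGC, TTTCGCGC, TTTGCCGC and TTTGGCGC were searched on both strands, and overlapping words were each counted. At least 1 word was found in 14 of the 41 members (34.1%), compared with 704 of 27025 genes in the whole table (2.6%). By window, 14 of the members' 49 (28.6%) held a word, against 2.26% of all 32851 windows. The CCAAT word, read on both strands, was in 57.1% of the members' windows and in 37.41% of all windows. Stretches of 120 bases around the words, 5′ to 3′ on the gene's strand, are shown for the 4 members with the largest flight differences among those with an E2F word before the start, and capitals mark the words. Mcm3 and Cdt1, whose flight differences of -0.62 and -0.61 are slightly larger than that of Pola1 (-0.61), hold their words after the start and are not printed. Counted in bases from the start, the stretch runs from -241 to -122 in Uhrf1, from -135 to -16 in Mcm6, from -194 to -75 in Pola1 and from -207 to -88 in Mcm5.
Uhrf1, chr17:56304072-56304191, + strand: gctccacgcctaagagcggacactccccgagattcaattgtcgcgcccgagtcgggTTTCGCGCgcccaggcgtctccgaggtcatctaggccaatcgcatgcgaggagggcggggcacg
Mcm6, chr1:128359721-128359840, - strand: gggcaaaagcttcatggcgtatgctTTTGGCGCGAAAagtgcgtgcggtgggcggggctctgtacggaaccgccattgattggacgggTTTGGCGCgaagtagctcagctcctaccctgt
Pola1, chrX:93632230-93632349, - strand: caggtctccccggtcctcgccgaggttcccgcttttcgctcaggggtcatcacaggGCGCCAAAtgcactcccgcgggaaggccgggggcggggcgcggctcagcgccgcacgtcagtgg
Mcm5, chr8:75109302-75109421, + strand: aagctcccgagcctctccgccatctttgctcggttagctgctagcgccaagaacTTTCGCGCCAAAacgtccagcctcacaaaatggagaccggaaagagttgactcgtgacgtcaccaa
In Mcm6 and Mcm5 a word on the gene's strand overlaps one on the other strand, so that the capitals run on past 8 bases, and Mcm6 holds another word further down. Pola1 holds its word on the opposite strand only.

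Flight differences ranged widely both with and without a word. The 14 members with one had a median log2 difference of -0.46 and a range of -0.77 to -0.06, Uhrf1 and Gins3 being the ends. The members with a window and no word had a median of -0.40 and a range of -1.42 to -0.02. Dbf4, which fell the most, had none of these letters in its window. These matches describe the sequence only.

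Of the polymerase and primase genes 7 of 8 fell, with a median of -0.52, where 25.7% of all tested genes fell. Pole, the catalytic subunit of the leading-strand polymerase epsilon, read 6.96 and 7.45 in microgravity and 6.97 and 7.62 on the centrifuge, against 7.85 and 7.88 in ground units and 7.72 and 8.07 in laboratory dishes in osteoinductive and growth medium. Flight and ground-based arrays did not overlap, and the osteoinductive flight arrays were the lowest (difference -0.63, SE 0.10, adjusted p = 0.000406). Its partner Pole2 fell by 0.52. Pola1 and Pola2, subunits of polymerase alpha, fell by 0.61 (adjusted p = 0.000717) and 0.39 (adjusted p = 0.0037). The primase subunits Prim1 and Prim2, which lay down the RNA primers that polymerase alpha extends, both fell by 0.52. In polymerase delta, which copies the lagging strand, the accessory subunit Pold2 fell by 0.51 (adjusted p = 0.00215). The catalytic subunit Pold1 had a difference of -0.20 (SE 0.08, adjusted p = 0.0632), the smallest of the 8.

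**Figure D2:**
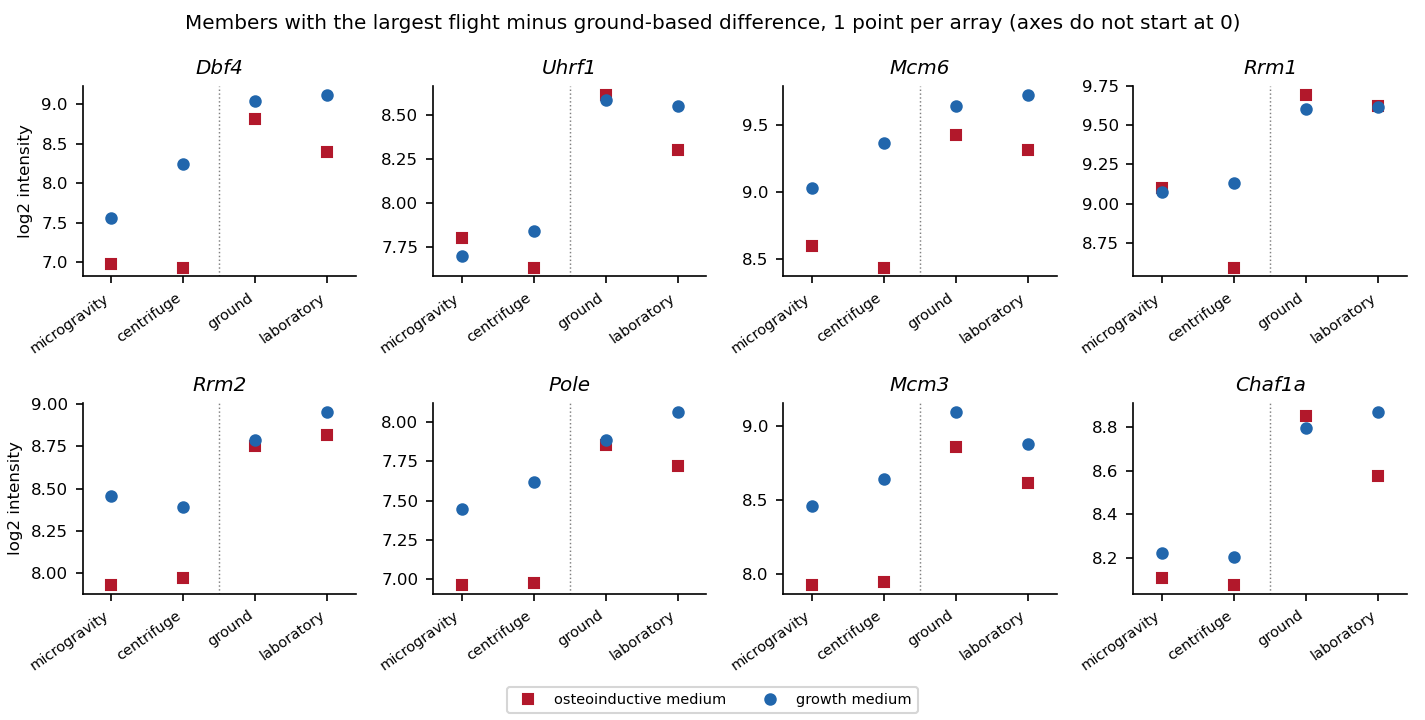
Log2 intensity (vertical axes, which do not start at 0) of the 8 members with the largest flight minus ground-based difference, by condition along the horizontal axis, with 1 point per array: squares for osteoinductive medium and circles for growth medium, and a dotted line between flight and ground-based conditions. For every gene but Mcm6 and Mcm3 all 4 flight points lie below all 4 ground-based points.

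The clamp, clamp loader and single-strand binding genes had smaller differences, with a median of -0.34. Of these 9 members 7 fell, where 25.7% of all tested genes fell. Pcna encodes the ring that tethers polymerases to DNA and read 10.51 and 10.46 in microgravity and 10.73 and 11.16 on the centrifuge, against 10.86 and 10.99 in ground units and 10.99 and 11.13 in laboratory dishes (osteoinductive and growth medium). The growth centrifuge array was the highest of the 8, and the difference of -0.28 (SE 0.13) did not pass (adjusted p = 0.104, and 0.00401 without that array). The second Pcna probe set gave -0.29, and the gene table lists Pcna pseudogenes, so its signal may be shared. Of the loader subunits Rfc1 to Rfc5, 4 fell, by 0.24 to 0.43. Rfc4 had the largest difference (adjusted p = 0.0106). Rfc2 had -0.29 (adjusted p = 0.0887, and 0.00445 without the growth centrifuge array). Rpa1, Rpa2 and Rpa3, which coat single-stranded DNA, fell by 0.34, 0.22 and 0.35.

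Nucleotide supply genes had the largest median of the groups with at least 4 members, -0.59. Of the 4 genes 3 fell, where 25.7% of all tested genes fell. Rrm1 and Rrm2 are the subunits of ribonucleotide reductase, which makes deoxynucleotides. Rrm1 read 9.10 and 9.07 in microgravity and 8.59 and 9.13 on the centrifuge, against 9.69 and 9.60 in ground units and 9.62 and 9.61 in laboratory dishes in osteoinductive and growth medium. The osteoinductive centrifuge array was the lowest by far, and no flight array reached the ground-based ones (difference -0.66, SE 0.11, adjusted p = 0.000742). Rrm2 read 7.93 and 8.46 in microgravity and 7.97 and 8.39 on the centrifuge, against 8.75 and 8.79 in ground units and 8.81 and 8.95 in laboratory dishes (osteoinductive and growth medium), also with no overlap, and fell by 0.64 (SE 0.09, adjusted p = 0.000273). Tyms, thymidylate synthase, fell by 0.54 (adjusted p = 0.00191). Tk1, the thymidine kinase of S phase, had differences of -0.16 (adjusted p = 0.152) by the brighter of its 2 probe sets and -0.40 by the dimmer, which disagreed more than those of Slbp (-0.15 and -0.21) and Pcna. The mean of both Tk1 probe sets passed, at -0.28 (adjusted p = 0.0176). Rpa3 also had 2 probe sets, with -0.35 and -0.56. The probe sets of Tk1, Slbp and Rpa3 were, like those of Pcna, not placed on the genome here, so which value stands for the gene is not settled.

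In the group that joins and packs new DNA, 4 of 6 fell, with a median of -0.37, where 25.7% of all tested genes fell. Uhrf1, which recruits the maintenance DNA methyltransferase to newly copied DNA, read 7.80 and 7.70 in microgravity and 7.63 and 7.84 on the centrifuge, against 8.62 and 8.59 in ground units and 8.30 and 8.55 in laboratory dishes (osteoinductive and growth medium). A gap parted the highest flight array from the lowest ground-based array (difference -0.77, SE 0.09, adjusted p = 4.02e-05). Chaf1a and Chaf1b are subunits of the chromatin assembly factor that deposits histones behind the fork. Chaf1a read 8.11 and 8.22 in microgravity and 8.08 and 8.20 on the centrifuge, against 8.85 and 8.79 in ground units and 8.57 and 8.87 in laboratory dishes (osteoinductive and growth medium), without overlap, and fell by 0.62 (SE 0.08, adjusted p = 0.00012). Chaf1b read 7.38 and 7.77 in microgravity and 7.63 and 7.70 on the centrifuge, against 7.65 and 7.80 in ground units and 7.63 and 7.70 in laboratory dishes (osteoinductive and growth medium), with overlap in both media and a difference of -0.08 (SE 0.08, adjusted p = 0.491). Fen1, the nuclease that trims Okazaki fragments, fell by 0.48 (adjusted p = 0.00195), and Lig1, the ligase that joins them, by 0.26 (adjusted p = 0.0269). Slbp binds the ends of histone messenger RNAs and read 8.79 and 8.92 in microgravity and 8.69 and 9.40 on the centrifuge, against 8.96 and 9.15 in ground units and 8.99 and 9.30 in laboratory dishes (osteoinductive and growth medium). The growth centrifuge array was its highest, and the difference was -0.15 (SE 0.10, adjusted p = 0.26, and 0.0139 without that array). Of the 2 control genes, the transcription factor E2f1 fell by 0.30 (SE 0.08, adjusted p = 0.0143) and the checkpoint kinase Chek1 by 0.53 (SE 0.11, adjusted p = 0.00361).

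The conditions were then compared in pairs, with medium as a covariate and 2 arrays a side. In microgravity minus ground 28 of the 47 members fell and 0 rose, where 18.1% of all tested genes fell and 10.6% rose, with a members' median of -0.42. In centrifuge minus ground 18 fell and 0 rose, where 3.78% of all tested genes fell and 6.34% rose, with a members' median of -0.37. The comparisons share the ground arrays. Dbf4 fell by 1.66 in microgravity minus ground (adjusted p = 7.65e-05) and by 1.34 in centrifuge minus ground (adjusted p = 0.000579). Uhrf1 fell by 0.85 in microgravity and by 0.87 on the centrifuge against ground, and Pola1 by 0.56 in microgravity and by 0.82 on the centrifuge. The counts rest on few arrays, since leaving out an array of either condition leaves 1 on that side. Without 1 array the members' median ran from -0.50 to -0.31 in microgravity against ground. After centring on the 1000 brightest probe sets 12 members fell in that comparison, where 767 of 13205 genes fell and 2891 rose. In centrifuge against ground the members' median without 1 array ran from -0.55 to -0.27. With no term for medium 4 members fell in microgravity against ground, where 518 of 13205 genes fell and 777 rose. In centrifuge against ground 3 members then fell, where 96 of 13205 genes fell and 439 rose.

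**Figure D3:**
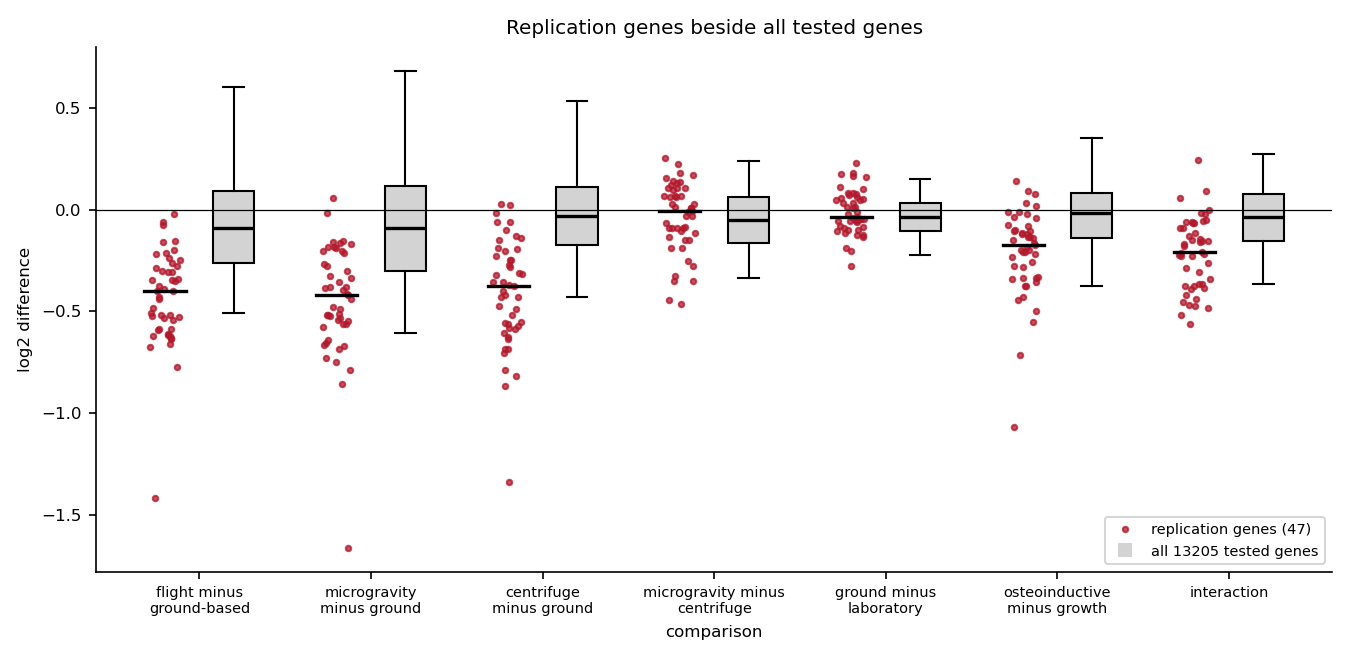
Log2 differences (vertical axis) of the 47 tested replication genes (red points, black bar at their median) beside those of all 13205 tested genes (grey boxes: middle line the median, box the quartiles, whiskers the 5th and 95th percentiles) in 7 comparisons. The members' medians lie near -0.4 in the comparisons of flight conditions with ground-based ones and near 0 in microgravity minus centrifuge and in ground minus laboratory.

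Between the flight conditions no member passed the threshold. In microgravity minus centrifuge 0 of 47 were called by limma, 4 had an unadjusted p under 0.05, and the smallest adjusted p was 0.271. Over all tested genes the share called was 0%, with 1507 genes at an unadjusted p under 0.05. The members' median was -0.01, and 0.13 after centring on the 1000 brightest probe sets. The 4 largest differences belonged to Pcna (-0.46), Rpa3 (-0.44), Rfc2 (-0.35) and Orc6 (-0.35). In each of them the growth pair differed more than the osteoinductive pair. Pcna differed by -0.23 in osteoinductive and -0.70 in growth medium, and Orc6 by -0.10 in osteoinductive and -0.59 in growth medium. Rpa3 read 7.84 and 8.20 in microgravity and 8.19 and 8.73 on the centrifuge, against 8.43 and 8.70 in ground units and 8.45 and 8.79 in laboratory dishes in osteoinductive and growth medium. Rfc2 read 8.38 and 8.40 in microgravity and 8.52 and 8.97 on the centrifuge, against 8.72 and 8.71 in ground units and 8.98 and 9.01 in laboratory dishes (osteoinductive and growth medium). Orc6 read 8.94 and 8.78 in microgravity and 9.04 and 9.37 on the centrifuge, against 9.32 and 9.38 in ground units and 9.43 and 9.51 in laboratory dishes (osteoinductive and growth medium). In Rpa3, Rfc2 and Orc6 the growth centrifuge array was well above the growth microgravity array and near its ground-based counterparts.

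In ground minus laboratory, the units operated by hand against plain culture dishes, limma called 0 of 47 members. None had an unadjusted p under 0.05, and the smallest adjusted p was 1. The share called over all genes was 0%, with 269 genes at an unadjusted p under 0.05. The members' median was -0.04, as was that of all genes. It was -0.09 in growth medium, where 33 of 47 members and 60.1% of all tested genes were lower in ground units. In osteoinductive medium it was 0.04, where 16 of 47 members and 60.4% of all tested genes were lower. Without the growth ground array the median was 0.09.

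Fewer replication genes differed between the media, and those that did were lower in osteoinductive medium. In osteoinductive minus growth 13 of 47 members fell and 0 rose, where 8.13% of all tested genes fell and 6.42% rose, and the members' median was -0.17 against -0.02 over all genes. Chek1 had the largest difference, reading 7.75 and 8.70 in microgravity and 7.34 and 8.92 on the centrifuge, against 8.35 and 9.15 in ground units and 8.20 and 9.14 in laboratory dishes in osteoinductive and growth medium. The osteoinductive array was the lower one in all 4 conditions, and the fall was 2.1-fold (log2 difference -1.07, SE 0.12, adjusted p = 8.71e-05). Dbf4 fell by 0.71 (SE 0.14, adjusted p = 0.0047), with its widest gap on the centrifuge. Prim1 read 7.57 and 8.15 in microgravity and 7.45 and 8.45 on the centrifuge, against 8.34 and 8.41 in ground units and 8.20 and 8.76 in laboratory dishes (osteoinductive and growth medium) and fell by 0.55 (SE 0.12, adjusted p = 0.0104). Mcm6 fell by 0.50 (SE 0.11, adjusted p = 0.00949). The others that fell were Cdc6, Orc2, Mcm3, Mcm4, Pola1, Pole, Pole2, Rpa3 and Slbp, all but Slbp also lower in flight.

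The medium difference varied between conditions. The members' median of osteoinductive minus growth was -0.17 in microgravity, -0.42 on the centrifuge, -0.00 in ground units and -0.14 in dishes, each from 1 pair of arrays. On the centrifuge 42 of 47 members were lower in osteoinductive medium, against 59.1% of all tested genes, whose median was -0.07. In ground units 24 of 47 were lower, near the 50.9% of all tested genes. Chek1 stood out in ground units too, at -0.81. In 2 members, Chek1 and Chaf1b, all 4 osteoinductive arrays lay below all 4 growth arrays, as in 3.57% of all tested genes. Leaving out either centrifuge array left 4 calls among the members, where 471 of 13205 genes fell and 644 rose. Leaving out either laboratory array left 8, where 776 of 13205 genes fell and 622 rose.

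Whether flight went with a larger difference in one medium was tested as an interaction, osteoinductive minus growth. By limma 0 of 47 members were called (adjusted p = 0.999 for each), as were 0% of all genes, with 525 genes and 8 members at an unadjusted p under 0.05. Of the 47 interaction values 44 were negative, a larger fall in osteoinductive medium, as were 58.7% of all tested genes, and the median was -0.21 against -0.04. After centring on the 1000 brightest probe sets 41 were negative. The largest belonged to Rfc4 (-0.56, SE 0.17), Gins1 (-0.52, SE 0.19), Prim1 (-0.48, SE 0.21) and Dbf4 (-0.47, SE 0.28). Rfc4 read 7.59 and 8.29 in microgravity and 7.76 and 8.14 on the centrifuge, against 8.38 and 8.32 in ground units and 8.39 and 8.40 in laboratory dishes in osteoinductive and growth medium. Its osteoinductive flight arrays were lower than the other 6, which lay close together. Gins1 read 7.02 and 7.33 in microgravity and 6.78 and 7.22 on the centrifuge, against 7.52 and 7.19 in ground units and 7.39 and 7.44 in laboratory dishes (osteoinductive and growth medium), with the same 2 arrays lowest.

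Within each medium the flight difference was read from the same fit, a choice made after the data had been seen. In osteoinductive medium 30 of 47 members fell, where 11.7% of all tested genes fell and 7.1% rose, with a members' median of -0.51. In growth medium 16 fell, where 5.79% of all tested genes fell and 8.1% rose, with a members' median of -0.28. No member rose in either medium. There were 15 members called in both media, 15 in osteoinductive medium alone, 1 in growth medium alone (Tyms) and 16 in neither, and the interaction test called none of these apart. Both flight arrays lay below both ground-based arrays for 45 of 47 members in osteoinductive medium, as in 45.5% of all tested genes, and for 35 of 47 in growth medium, as in 35.1%. The Mcm2 to Mcm6 differences ran from -0.86 to -0.78 in osteoinductive and from -0.49 to -0.37 in growth medium. Uhrf1 had -0.75 in osteoinductive and -0.80 in growth medium, and Chaf1a -0.62 in each. After centring on the 1000 brightest probe sets 4 members fell in growth medium, where 317 of 13205 genes fell and 1371 rose. In osteoinductive medium 19 members then fell, where 650 of 13205 genes fell and 1404 rose. Without 1 array the members' median ran from -0.41 to -0.23 in growth medium and from -0.58 to -0.46 in osteoinductive medium.

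**Figure D4:**
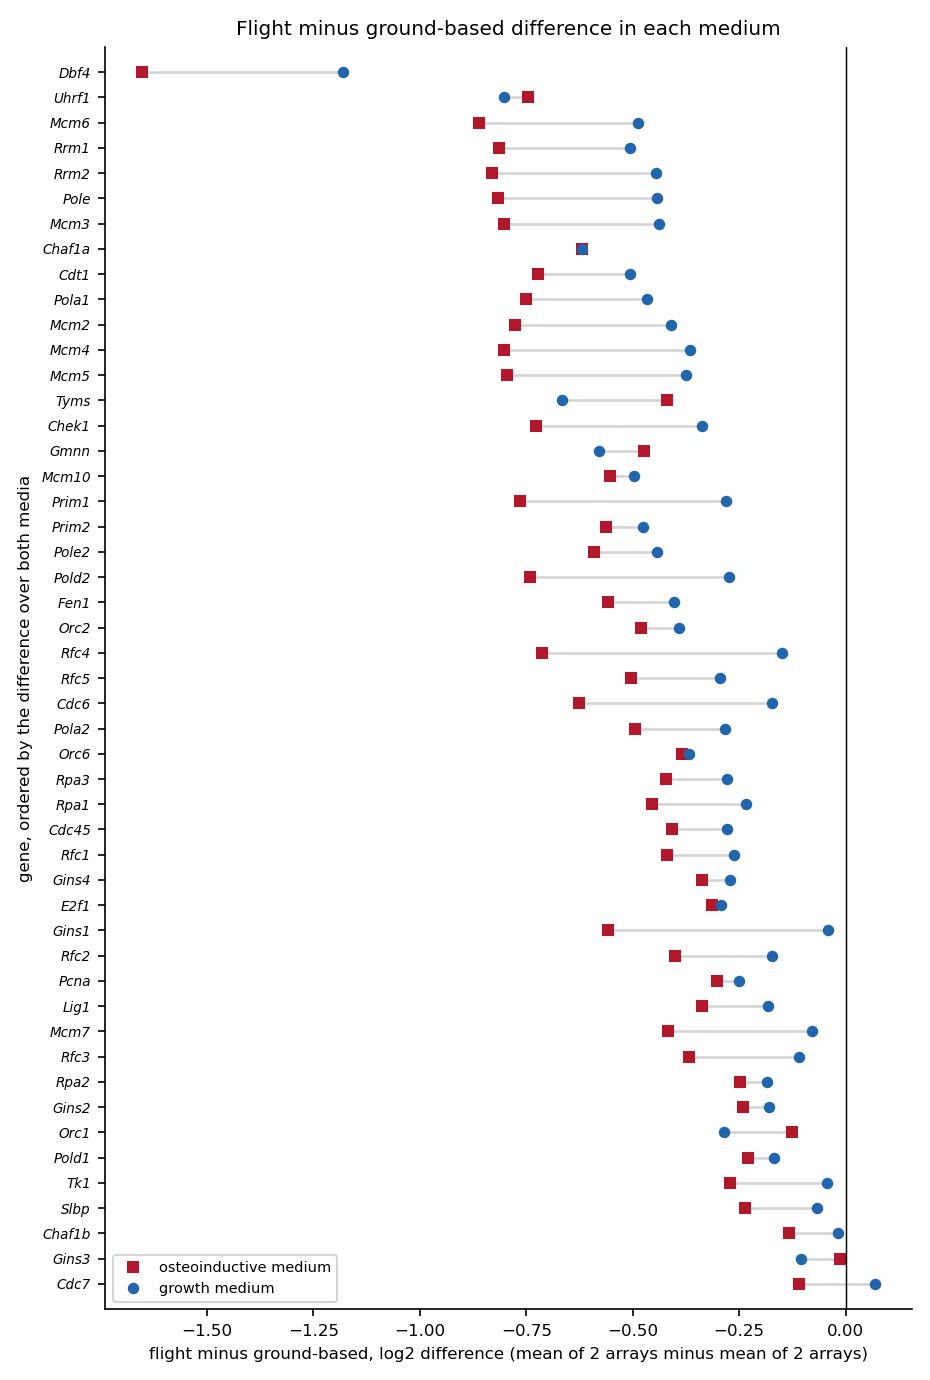
Flight minus ground-based log2 difference (horizontal axis) of each of the 49 replication genes (rows, ordered by the difference over both media), as a square for osteoinductive medium and a circle for growth medium, each the mean of 2 flight arrays minus the mean of 2 ground-based arrays; grey lines join the 2 media of a gene. Most squares lie left of their circles, and the circle of Cdc7 is the single point right of 0.

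Genes that work beside this machinery were followed as listed groups. Of 31 tested other replication factors 19 fell and 0 rose in flight minus ground-based, with a median of -0.27, where 25.7% of all tested genes fell and 12.7% rose with a median of -0.09. Top2a, the topoisomerase that untangles copied chromosomes, fell by 1.71 (adjusted p = 3.98e-06), Pclaf, a Pcna-binding factor, by 0.77 and the chromatin helicase Hells by 0.73, whereas Asf1a, a histone chaperone, had 0.05 (adjusted p = 0.642). Donson had -0.02 and Chtf18 -0.06, and neither passed. All 10 tested fork repair genes fell, with a median of -0.32, among them Rad18 by 0.60, Exo1 by 0.57 and Wee1 by 0.39. Of 23 S-phase regulators 11 fell and 1 rose. The cyclin Ccna2 fell by 1.25, Cks1b by 1.11 and the cyclin Ccnd1 by 0.52, while the transcription factor Mycn rose by 0.92 (adjusted p = 0.000255). Ccnd3 and Mybl2 had 0.05 and 0.08 and did not pass.

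Of 21 tested genes linked to cell cycle arrest and quiescence 5 fell and 3 rose, with a median of -0.07. These shares are near those of all tested genes, of which 25.7% fell and 12.7% rose. Cdkn1c, an inhibitor of cyclin-dependent kinases, rose by 1.55 (SE 0.09, adjusted p = 1.67e-07), Tob1 by 0.43 and the E2F-binding repressor Rb1 by 0.26. The inhibitor Cdkn2c fell by 0.80, Rbl1 by 0.60 and Lin54 by 0.42. After centring on the 1000 brightest probe sets 9 of the other replication factors and 3 of the fork repair genes fell, and 0 of either rose. In the arrest list 2 then fell and 4 rose, and 3 fell and 4 rose after quantile normalization. Over all genes 1312 of 13205 fell and 2991 rose after that centring. After quantile normalization 2531 of 13208 fell and 1701 rose. All 16 tested mitosis genes fell, with a median of -1.22, a larger median difference than that of the replication genes.

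**Figure D5:**
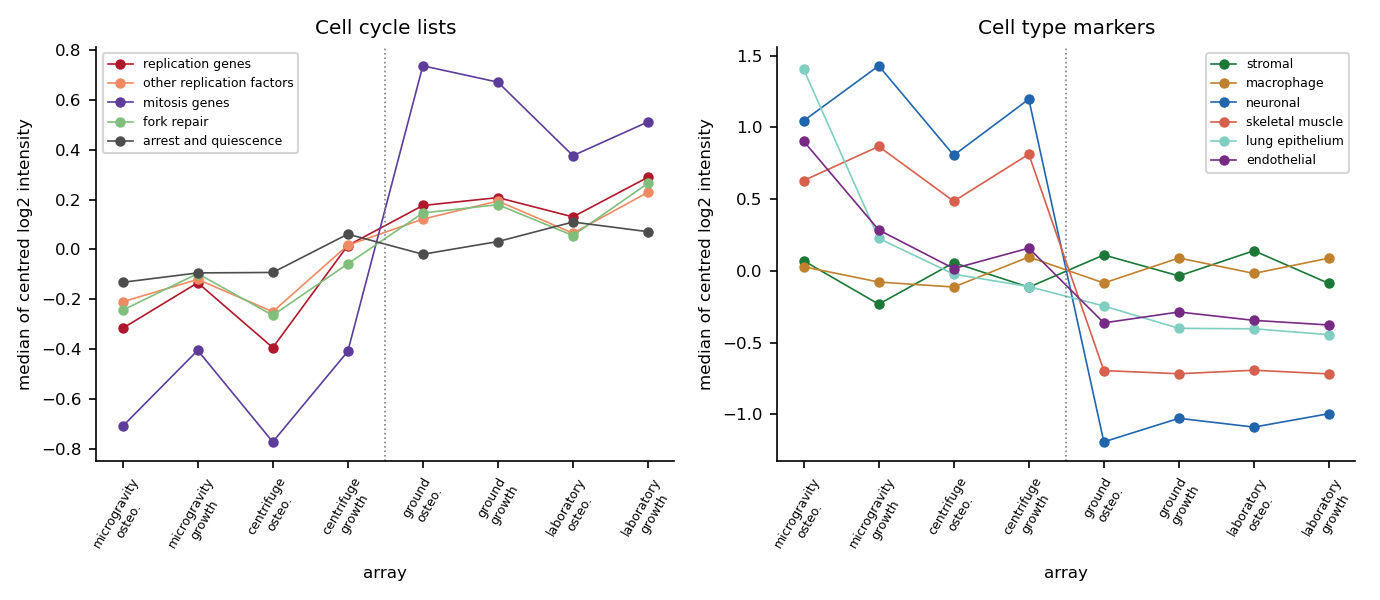
Median over the genes of a list with a probe set, tested or not, of the log2 intensity centred on each gene's mean (vertical axes) on the 8 arrays (horizontal axes), for cell cycle lists on the left and cell type markers on the right; lines only join the points of a list, and a dotted line parts flight from ground-based arrays. On the left, replication genes, other replication factors and fork repair genes follow one another closely. Among the cell cycle lists mitosis genes show the widest gap between flight and ground-based arrays, and neuronal markers on the right show a wider one.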

How the data were processed

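Total RNA of 8 samples was labelled and hybridised to single-colour arrays, 1 array each. The deposited values, 1 per probe set and array, are intensities on a linear scale. The submitters' processing notes list RMA and GCRMA, without versions, and do not say which of them applies. The genome build was not given in the labels or the file. The log2 of the deposited intensity was taken, with no further normalization. The platform annotation names 1 gene for 21789 of the 35557 probe sets, several for 1621 and none for 12147. Against RefSeq's gene table (GRCm38.p6), 21698 of the 21789 matched and 0 symbols changed.

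Tests used limma 3.58.1 in R 4.3.3 (lmFit and eBayes), two-sided, with Benjamini-Hochberg adjustment over 13205 genes and a threshold of 0.05. Flight minus ground-based was adjusted for medium (5 residual degrees of freedom), so the 2 conditions on each side counted as repeats although they differ. Conditions, and media, were compared in a model of both terms (3 residual degrees of freedom), in which their interaction is the error. The interaction of flight with medium had 4. The code was tested on simulated data.

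The members, the other gene lists and the cell type markers were chosen with earlier results of these data known. Named with values on every array are the 8 members with the largest and the 4 with the smallest flight difference, and the 4 largest in osteoinductive minus growth, in the interaction and in microgravity minus centrifuge. Members of the same complexes stand beside them. From each other list the 3 highest and 3 lowest flight differences were taken. For repair and mitosis genes the text gives fewer. Gmnn, Orc1 and Cdt1 are given by array in addition, chosen after their values were seen. Promoters are those of the 4 members with the largest flight differences among those with an E2F word before the start. Bases after the start were not printed, a restriction set after the values were seen. Alternatives were quantile normalization, centring on the 1000 brightest probe sets, no filter, a filter at the 60th percentile, 32 added before log2, the mean of a gene's probe sets, no term for medium, only the 4 arrays compared, and each array left out.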

Additional observations from a re-analysis of the deposited data

Results flagged for a closer look

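In each member the 4 flight arrays and the 4 ground-based arrays were searched for a value far from its group, as were those of the members' median, by the share of the group's range that parts it from the next one (Dixon's 95% limit for 4 values). Of 100 such groups 4 had one, where chance gives about 1 in 20. The arrays of a group differ in medium and condition. Rrm1 read 8.59 on the osteoinductive centrifuge array, against 9.07 to 9.13 on the other flight arrays. Cdc6 read 7.92 on the growth laboratory array, against 7.65 to 7.66 on the other ground-based arrays. Mcm10 read 7.59 on the osteoinductive laboratory array, against 7.95 to 7.98 on the other ground-based arrays. Gins3 read 7.47 on the osteoinductive ground array, against 7.38 on the other ground-based arrays.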

How the results depend on the processing

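No called difference of a member turned its sign under the alternatives run. The tests of conditions pair the arrays by medium, and the fits with no term for medium are their unpaired form; no label numbers replicates. In flight minus ground-based 36 members fell, 23 after centring on the 1000 brightest probe sets and 29 to 40 without 1 array. Of 13205 genes 3393 fell, 1312 after centring and 2117 to 4768 without 1 array. The members' median was -0.40, -0.25 after centring and -0.47 to -0.37 without 1 array. Of the 11 members that did not pass 7 passed under some alternative. In microgravity minus ground 28 fell, 12 after centring, 4 with no term for medium and 4 to 31 without 1 array, with a median of -0.21 after centring and -0.50 to -0.31 without 1 array. In centrifuge minus ground 18 fell, 3 with no term for medium and 3 to 25 without 1 array, with a median of -0.55 to -0.27 without 1 array. In microgravity minus centrifuge the median of -0.01 was 0.13 after centring and -0.11 to 0.09 without 1 array; in ground minus laboratory it was -0.13 to 0.09 without 1 array, the highest (0.0871) without the growth ground array. In osteoinductive minus growth 13 members fell, and 4 to 12 without 1 array. Of 13205 genes 1073 fell, and 471 to 897 without 1 array. The members' median was -0.22 to -0.11 without 1 array. The interaction's median was -0.31 to -0.15 without 1 array. Within growth medium 16 fell, 4 after centring, 5 with the filter at the 60th percentile, which tests 35 members, and 2 to 28 without 1 array. The median was -0.14 after centring and -0.41 to -0.23 without 1 array. Within osteoinductive medium 30 fell, 19 after centring, 19 with that filter and 13 to 38 without 1 array. The median was -0.57 after quantile normalization, -0.34 after centring and -0.58 to -0.46 without 1 array. Beyond these constructions, the cause was not tested. With 1 array for each medium and condition, repeats of a condition are not separated from the difference between media, and flight is not separated from automated handling.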
